A study of Homo sapiens with 6 samples.

Results

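Expression of 7 chemokine genes, known mainly for drawing lymphocytes and monocytes, was followed in SW780, a bladder cancer line of human origin used in the study as a luminal type. They are CXCL10, CXCL11, CXCL16, CCL2, CCL5, CCL20 and CCL28, chosen by gene symbol, and all 7 were found among the 16390 genes listed. The 6 libraries of total RNA are 3 of SW780 cells given RC48 (25 µg/ml) and 3 of the corresponding Control cells. RC48 (disitamab vedotin) is an antibody–drug conjugate that binds the receptor ERBB2 and carries monomethyl auristatin E, a microtubule inhibitor. The dose is from the study's methods, the time of exposure is not given in the sources used here, and the labels place the group names in a genotype field. All libraries come from 1 cell line, and the labels do not say whether replicates were separate cultures, so the p-values measure only the spread between these libraries.

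Chemokines are small secreted proteins that bind heparan sulfate on cell surfaces and guide cells that carry the matching G protein-coupled receptor. CXCL10 and CXCL11 bind CXCR3 on activated T cells and natural killer cells, together with their neighbour CXCL9, and are classical interferon-induced genes. CXCL16 is made as a membrane protein, is shed by ADAM10 and ADAM17, and binds CXCR6. CCL2 recruits monocytes through CCR2, CCL5 recruits T cells and monocytes, CCL20 recruits Th17 cells and immature dendritic cells through CCR6, and CCL28 recruits mucosal plasma cells through CCR10. Epithelial tumour cells can make several of them when NF-κB or interferon signalling is active.

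The genes and their flanks are given on GRCh38, the build named as hg38 in the submitters' processing notes. Positions come from RefSeq on GRCh38.p14. CXCL10 (NCBI gene 3627, chr4:76021118-76023497) and CXCL11 (NCBI gene 6373, chr4:76033682-76036070) lie on the minus strand of the same region of chromosome 4, and both are overlapped by ART3 on the opposite strand, a gene that is not listed in the files. CXCL16 (NCBI gene 58191, chr17:4733533-4739928, minus strand) overlaps MED11 on the plus strand, a subunit gene of the Mediator complex. CCL2 (NCBI gene 6347) is at chr17:34255285-34257203 on the plus strand. CCL5 (NCBI gene 6352, chr17:35871491-35880360, minus strand) has an annotated antisense transcript. CCL20 (NCBI gene 6364) is at chr2:227813842-227817556 on the plus strand, and CCL28 (NCBI gene 56477) at chr5:43356975-43412391 on the minus strand. These overlaps are of whole gene spans, introns included, while the study mapped reads to reference gene sequences. Whether counting used the strand is not stated, and sharing of reads between overlapping genes was not tested. The estimated counts of CXCL10, CXCL11 and CXCL16 were whole numbers in every library. MED11 had 295, 329 and 298 counts in Control replicates 1 to 3 and 465, 316 and 404 in RC48 replicates 1 to 3, with a log2 fold change of 0.36 (Benjamini-Hochberg adjusted p = 0.296 from edgeR's quasi-likelihood fit).

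RefSeq promoter sequences matched 4 of the 7 genes. The 250 bases before the transcription start are shown for CXCL10, CXCL11 and CCL20, because 2 of these genes were among the strongest rises of the set while CXCL11, the neighbour of CXCL10, was not called. Capitals mark matches to any of 4 motifs searched on both strands, the NF-κB consensus, the core of the interferon-stimulated response element (GAAA, 2 bases of any kind, then GAAA), the STAT element TTCNNNGAA and the AP-1 element TGANTCA. Sequences run 5′ to 3′ on the strand of the gene. The windows are chr4:76023498-76023747 (minus strand), chr4:76036071-76036320 (minus strand) and chr2:227813592-227813841 (plus strand), in that order.
CXCL10: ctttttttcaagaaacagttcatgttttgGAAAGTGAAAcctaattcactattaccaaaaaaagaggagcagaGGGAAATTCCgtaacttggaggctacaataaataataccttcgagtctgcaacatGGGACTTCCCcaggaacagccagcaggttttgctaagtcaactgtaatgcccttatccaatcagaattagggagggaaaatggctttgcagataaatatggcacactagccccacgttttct
CXCL11: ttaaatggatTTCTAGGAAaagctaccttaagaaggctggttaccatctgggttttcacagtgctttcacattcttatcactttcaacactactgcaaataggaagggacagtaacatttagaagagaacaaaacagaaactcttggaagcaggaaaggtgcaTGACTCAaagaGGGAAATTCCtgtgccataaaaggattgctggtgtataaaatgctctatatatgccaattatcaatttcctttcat
CCL20: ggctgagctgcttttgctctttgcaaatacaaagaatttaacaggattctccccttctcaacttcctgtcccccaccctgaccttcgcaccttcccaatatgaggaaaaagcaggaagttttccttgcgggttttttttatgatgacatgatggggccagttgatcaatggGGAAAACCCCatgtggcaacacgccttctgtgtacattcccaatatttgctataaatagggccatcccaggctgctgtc

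The CXCL10 window held 2 NF-κB matches, from −177 to −168 and from −122 to −113 relative to the start, and 1 match to the interferon-stimulated response element core from −221 to −212. The CXCL11 window held 1 NF-κB match from −76 to −67, with the same letters as the upstream one of CXCL10, an AP-1 match from −87 to −81 and a STAT match from −240 to −232. The CCL20 window held 1 NF-κB match on the reverse strand, from −79 to −70. Neither of the 2 annotated CCL28 starts had a match to any of the 4 motifs. Among 35116 RefSeq promoter windows of the same length, 9.96% held the NF-κB consensus, 3.02% the interferon-stimulated response element core, 6.57% the STAT element and 6.57% the AP-1 element. These matches describe letters in the windows, and binding was not measured.

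Library totals ran from 16453233 to 17988030 estimated counts. Levels are given as CPM, counts scaled to a common library size by edgeR's TMM method, and 1 count in Control replicate 1 (CCL2) is 0.0578 CPM. The RC48 libraries differed from each other more than the Control libraries did, with a chi-square per degree of freedom (1 for sampling noise alone) of 21.7 to 130 between pairs. Their log2 ratio to the Control mean followed GC content across 12981 genes with a Spearman's rho of 0.74 in replicate 1, −0.01 in replicate 2 and 0.57 in replicate 3, given as a description because genes are not independent replicates. Control replicates 1 and 2 were the closest pair, at 1.48 against 9.37 and 11.4 for the other Control pairs, and were kept as separate libraries because they still differed by more than sampling noise. In the comparison of RC48 with Control, 288 of 13055 genes tested (2.21%) had an adjusted p under 0.05 after Benjamini-Hochberg adjustment in edgeR's quasi-likelihood fit, 258 of them (1.98%) higher after RC48. An unadjusted p under 0.05 was found for 19.1% of the genes. With a correction for GC content, 927 genes were called and 590 of these were higher.

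CCL20, CXCL10 and CCL2 rose from 0 to 3 counts per Control library to 13 to 76 counts per RC48 library. CXCL16, by far the most abundant of the 7, was 1.59 times its Control level and CCL5 was 3.14 times its Control level, and neither passed the test. CXCL11 overlapped between the groups, and CCL28 was almost undetected in both. In all, 3 of the 7 genes were called, each of them higher, against 2.21% of all genes tested. In 5 of the 7, every RC48 library was above every Control library, against 17.4% of all genes tested. CCL20, CXCL10, CCL2, CCL5 and CXCL11 passed the filter on low counts through their RC48 libraries. These shares therefore describe the set and do not support a direction for it.

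**Figure D1:**
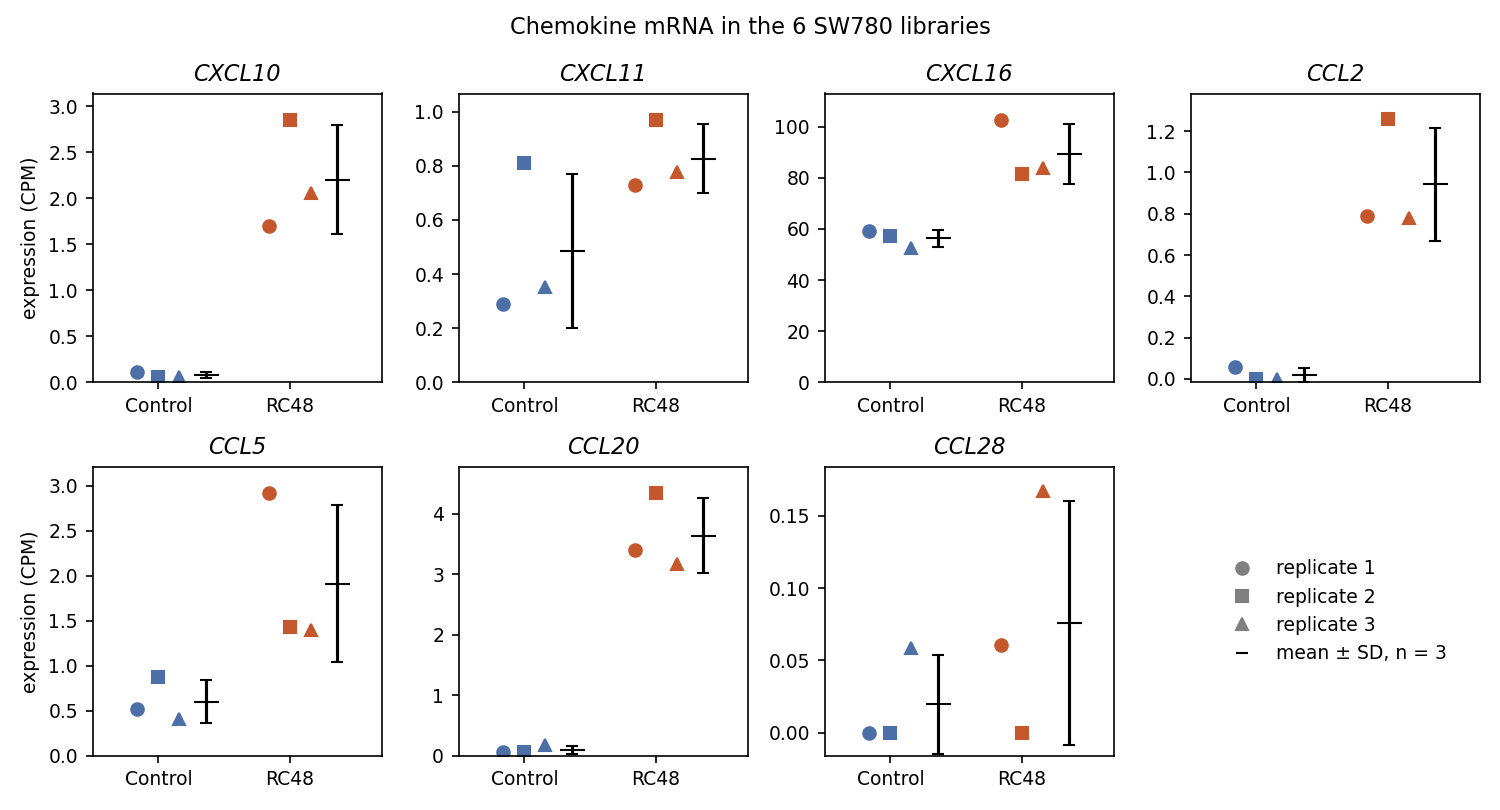
Expression of each of the 7 chemokines in CPM (TMM-scaled; each panel has its own vertical axis) in the 3 Control and 3 RC48 libraries, with marker shapes for the replicate numbers and bars for the mean ± SD (n = 3). The groups are apart for CXCL10, CXCL16, CCL2, CCL5 and CCL20, and overlap for CXCL11 and CCL28, whose RC48 replicate 2 is at 0.

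CCL20, the only known chemokine ligand of CCR6, had 1, 1 and 3 counts in Control replicates 1, 2 and 3. It had 56, 76 and 57 counts in RC48 replicates 1, 2 and 3. Each RC48 library was far above each Control library. Before the correction for GC content, the RC48 libraries were close to each other. In CPM, CCL20 rose from 0.0975 ± 0.0686 to 3.64 ± 0.619 (SD, n = 3 each). For its log2 fold change edgeR gave 5.13 (95% interval 4.24 to 6.02, SE 0.39, Benjamini-Hochberg adjusted p = 0.000637 from edgeR's quasi-likelihood fit). The Control level rests on 5 counts in all. From 5 against 189 counts, the ratio was 37.5 with a 95% exact counting interval of 15.8 to 117.0, which covers counting error only.

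CXCL10, a CXCR3 ligand, had 2, 1 and 1 counts in Control replicates 1, 2 and 3. After RC48 it had 28, 50 and 37 counts, again with no overlap. RC48 replicate 2 held the most. In CPM, CXCL10 rose from 0.0775 ± 0.033 to 2.21 ± 0.591 (SD, n = 3 each), and its log2 fold change was 4.71 (95% interval 3.71 to 5.70, SE 0.43, Benjamini-Hochberg adjusted p = 0.00167 from edgeR's quasi-likelihood fit). The ratio of 115 to 4 counts was 28.5, with a counting interval of 10.8 to 106.0.

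CCL2, the monocyte attractant that binds CCR2, had 1 count in Control replicate 1 and none in Control replicates 2 and 3. After RC48 it had 13, 22 and 14 counts. It was detected in every RC48 library and in 1 of 3 Control libraries. The mean went from 0.0193 ± 0.0334 to 0.942 ± 0.273 CPM (SD, n = 3 each). For its log2 fold change edgeR gave 5.16 (95% interval 3.54 to 6.77, SE 0.70, Benjamini-Hochberg adjusted p = 0.0106 from edgeR's quasi-likelihood fit). With 1 Control count the ratio of 48.6 had a counting interval of 8.33 to 1960, so its size is poorly fixed. The call was lost without Control replicate 1, 2 or 3, with adjusted p-values of 0.0599, 0.0755 and 0.0956.

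CCL5, which attracts T cells and monocytes, had estimated counts of 9.3, 15.38 and 6.79 in Control replicates 1, 2 and 3. They were 48.4, 25.11 and 25.09 in RC48 replicates 1, 2 and 3. Every RC48 library was above the highest Control library, with replicate 1 set apart from the other two. The estimates are not whole, so a part of the reads was shared with other features and the level is uncertain. In CPM, the means were 0.601 ± 0.239 and 1.91 ± 0.87 (SD, n = 3 each), and its log2 fold change was 1.65 (95% interval 0.67 to 2.63, SE 0.42). The adjusted p was 0.114 after Benjamini-Hochberg adjustment in edgeR's quasi-likelihood fit. It fell to 0.0278 without RC48 replicate 2 and to 0.0485 after correction for GC content (log2 fold change 1.49). It was 0.415, 0.226 and 0.423 without Control replicates 1, 2 and 3, 0.223 without RC48 replicate 3 and 0.0589 without RC48 replicate 1, where the log2 fold change was 1.21. The term for the replicate number, a pairing that the labels do not state, gave 0.0422.

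CXCL16, the transmembrane ligand of CXCR6, had 1022, 989 and 894 counts in Control replicates 1, 2 and 3. It had 1692, 1429 and 1504 counts in RC48 replicates 1, 2 and 3. The groups did not overlap, and RC48 replicate 1 was the highest. The means were 56.3 ± 3.33 CPM for Control and 89.4 ± 11.7 CPM for RC48 (SD, n = 3 each), and its log2 fold change was 0.67 (95% interval 0.35 to 0.98, SE 0.14, Benjamini-Hochberg adjusted p = 0.0571 from edgeR's quasi-likelihood fit). The correction for GC content lowered the log2 fold change to 0.40 and the adjusted p to 0.0369, with corrected means of 61.6 CPM in Control and 81.5 CPM after RC48. Without RC48 replicate 1, the library with the strongest GC trend, the log2 fold change was 0.55 and the adjusted p 0.00652. Without RC48 replicate 2, these were 0.72 and 0.019. It was not called without RC48 replicate 3 (adjusted p = 0.223 in edgeR) or without Control replicate 1, 2 or 3 (0.27, 0.291 and 0.286).

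CXCL11, the other CXCR3 ligand of the set, had 5, 14 and 6 counts in Control replicates 1, 2 and 3. After RC48 it had 12, 17 and 14 counts. Control replicate 2 reached the level of RC48 replicate 3, so the groups overlapped. The means were 0.485 ± 0.285 and 0.826 ± 0.128 CPM (SD, n = 3 each), and its log2 fold change was 0.76 (95% interval −0.20 to 1.72, SE 0.41, Benjamini-Hochberg adjusted p = 0.309 from edgeR's quasi-likelihood fit). An increase up to 3.3-fold lies within that interval and a decrease to 0.871 of the Control level does too. Corrected for GC content, its log2 fold change became 1.19 (adjusted p = 0.133 in edgeR). It was called by 1 of 18 alternatives, limma's voom with a quality weight for each library (adjusted p = 0.023).

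CCL28, a mucosal epithelial chemokine, had 0, 0 and 1 counts across the Control replicates and 1, 0 and 3 across the RC48 replicates. It did not pass the filter on low counts. The ratio of 4 counts to 1 was 3.97 with a counting interval of 0.393 to 195.0, so no difference was detectable at this depth. A two-sided exact permutation test of log2 CPM gave p = 0.4 for CCL28 and p = 0.3 for CXCL11. For the other 5 genes it gave 0.1, the smallest p that 3 libraries against 3 allow.

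**Figure D2:**
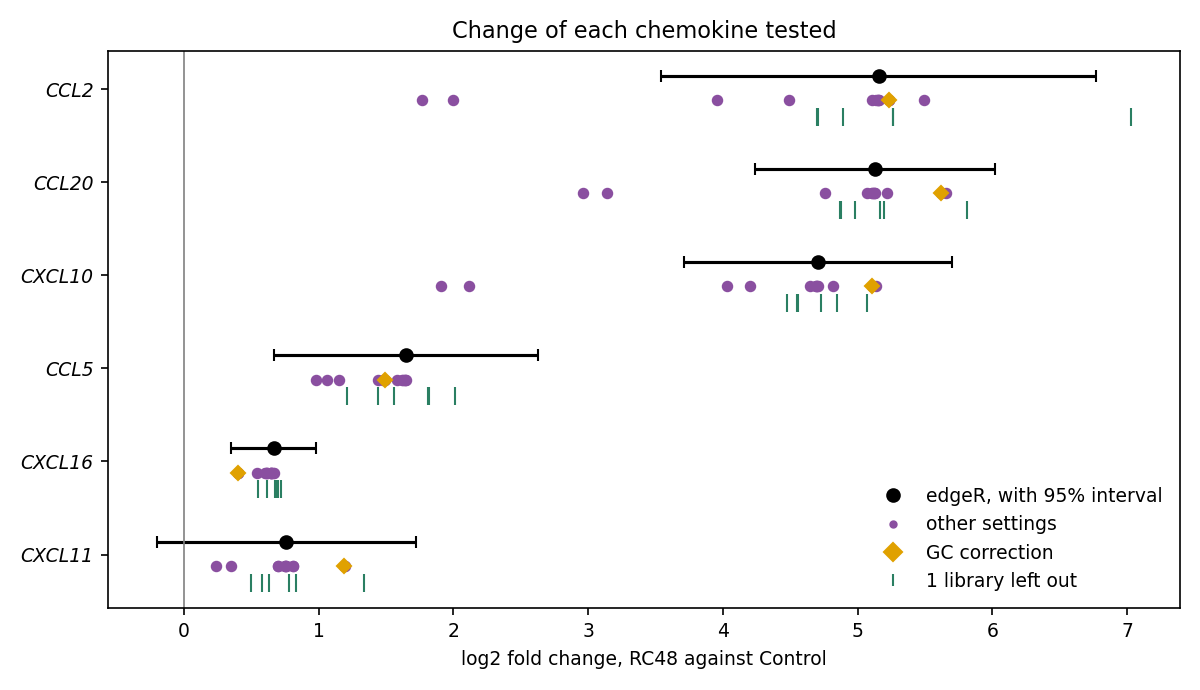
Log2 fold change of RC48 against Control for the 6 chemokines that passed the filter. Black points are edgeR's estimates with 95% intervals, purple points other settings, yellow diamonds the correction for GC content and green bars fits with 1 library left out. CCL2, CCL20 and CXCL10 are above 1.7 in every setting, and the lowest purple points of these 3 are the fits on log2(TPM + 1), which understate the change of low genes.

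CXCL10 and CXCL11, which share their receptor, were compared within each library. The number of CXCL10 counts per CXCL11 count was 0.4, 0.0714 and 0.167 in Control replicates 1, 2 and 3. It was 2.33, 2.94 and 2.64 in RC48 replicates 1, 2 and 3. CXCL11 thus had more counts than CXCL10 in every Control library and fewer in every RC48 library. Depth cancels in this ratio. The GC contents of the transcripts were 37.5% for CXCL10 and 37.2% for CXCL11, and a part of GC content in the ratio was not tested. On the log2 scale with 0.5 added to each count, the ratio was −2.18 ± 1.07 in Control and 1.36 ± 0.17 after RC48 (SD, n = 3 each), a difference of 3.54 (two-sided exact permutation p = 0.1, the smallest possible). The Control ratio rests on 4 CXCL10 counts and 25 CXCL11 counts, and its counting interval was 0.0405 to 0.463, against 1.87 to 3.89 after RC48. CXCL9, the remaining ligand of CXCR3, had 0 counts over all Control replicates and 2 over all RC48 replicates.

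**Figure D3:**
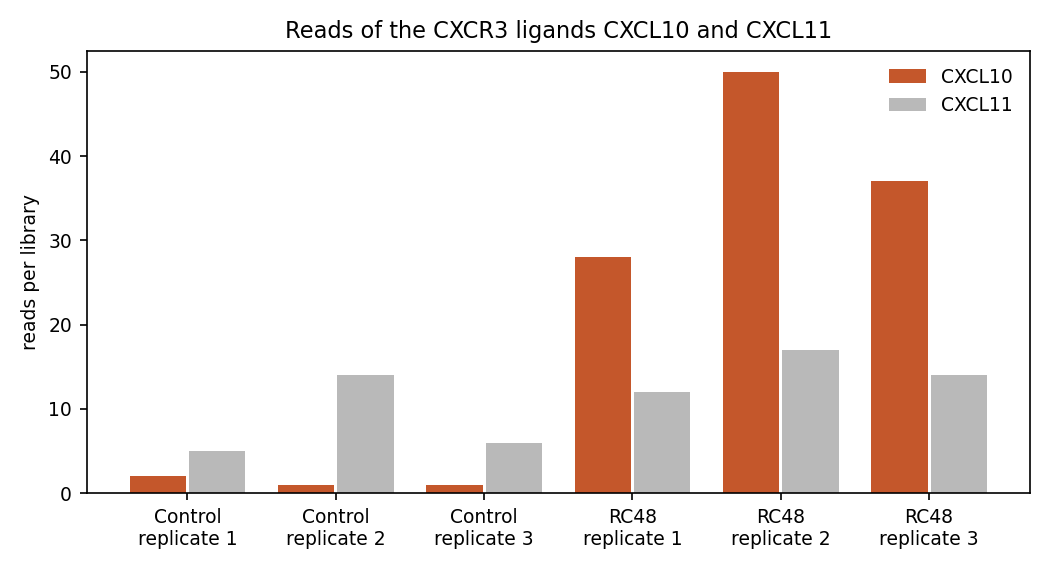
Read counts of CXCL10 and CXCL11 in each library. CXCL11 exceeds CXCL10 in the 3 Control libraries, and CXCL10 exceeds CXCL11 in the 3 RC48 libraries, where it reached 28, 50 and 37 counts against 12, 17 and 14.

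Levels of different genes were compared per length, as TPM, transcript abundance scaled for gene length and depth. TPM of RC48 replicate 2 was computed from its counts. CXCL16 led in both groups, with 51.3 ± 0.806 TPM in Control and 79.3 ± 6.47 TPM after RC48 (SD, n = 3 each). In the Control libraries the order after CXCL16 was CCL5 (mean 1.17 TPM), CXCL11 (0.73), CCL20 (0.34), CXCL10 (0.157), CCL2 (0.0767) and CCL28 (0.0133), and each of these overlapped with its neighbour in the order. After RC48, CCL20 came second with 10.9 ± 2.74 TPM, at least 8.8 in each library, apart from CXCL16 above it and from CXCL10 below it. CXCL10 (4.18 ± 1.49 TPM), CCL2 (3.39 ± 1.28 TPM) and CCL5 (3.32 ± 1.17 TPM) followed with overlapping ranges. CXCL11 (1.18 ± 0.294 TPM) and CCL28 (0.1 ± 0.105 TPM) came last, each apart from its neighbours. CXCL11 was thus above CCL20, CXCL10 and CCL2 by mean before RC48 and below them after it. The place of CCL5 after RC48 differed between libraries and shifted when the computed TPM of RC48 replicate 2 was left out. With the deposited TPM of replicates 1 and 3 alone, the median of CCL5 was 3.60 TPM, above CXCL10 (3.38) and CCL2 (2.67). In RC48 replicate 1 CCL5 had 4.66 TPM against 2.84 and 2.41. In RC48 replicate 3 it had 2.53 TPM against 3.91 for CXCL10 and 2.92 for CCL2.

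CXCL16 made up 94.1% to 96.1% of the summed TPM of the 7 genes in the Control libraries and 73.0% to 81.4% after RC48. The sum went from 53.45 to 54.32 TPM in Control to 93.88 to 107.1 TPM after RC48. Without CXCL16 it was 2.08 to 3.17 TPM in Control and 19.7 to 28.9 TPM after RC48. CCL20 had the next largest share after RC48, 8.31% to 13.1%, against 0.354% to 1.18% in Control. In bulk RNA, more cells with a transcript and more of it per cell cannot be told apart.

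**Figure D4:**
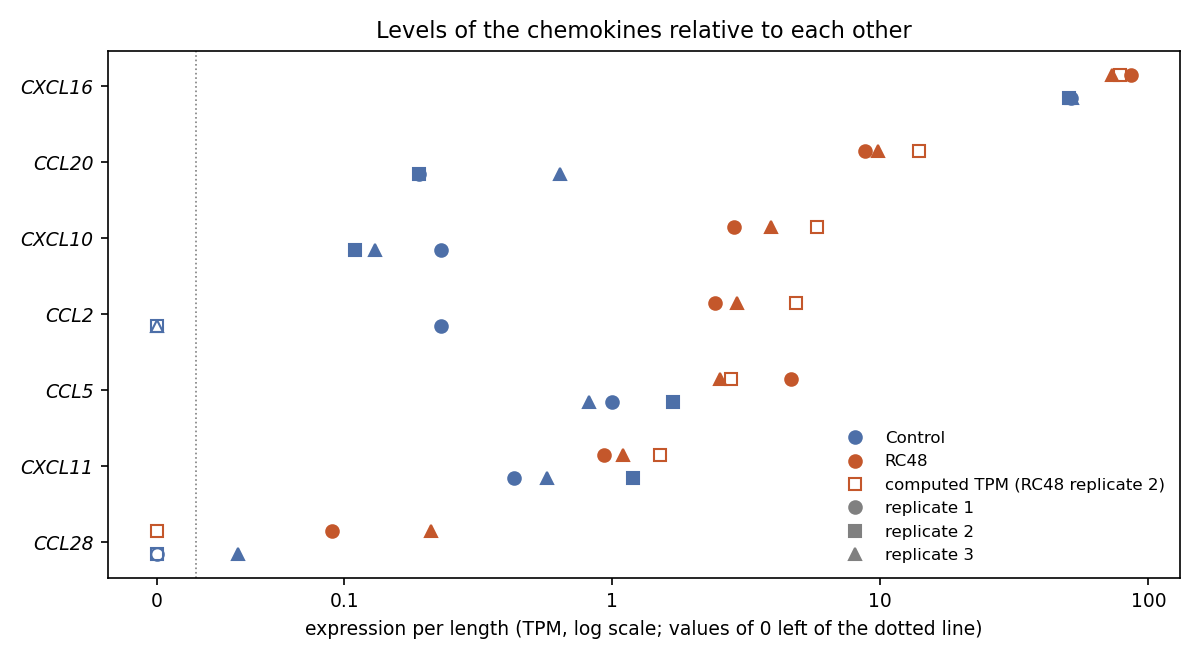
Level per length of each chemokine in each library, in TPM on a log axis, with values of 0 drawn left of the dotted line and marker shapes for the replicate numbers. CXCL16 is the highest in both groups, and CCL20, CXCL10 and CCL2 move from at most 0.64 TPM to at least 2.41 TPM.

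The RC48 libraries did not rank the 7 genes alike. CXCL10, CXCL11, CCL2 and CCL20 were highest in RC48 replicate 2, with a highest-to-lowest ratio of CPM of 1.68, 1.33, 1.61 and 1.37. CXCL16 and CCL5 were highest in RC48 replicate 1, with ratios of 1.26 and 2.1. The transcripts of CXCL10, CXCL11 and CCL20 are among the lowest in GC content, at 37.5%, 37.2% and 36.2%, which is the lowest 2.9%, 2.37% and 1.29% of the genes tested. CXCL16 (58.6%) and CCL5 (53.3%) are above the median. After the correction for GC content, CXCL10, CXCL11, CCL5 and CCL20 were highest in replicate 1, and CXCL16 and CCL2 in replicate 2. The highest-to-lowest ratio was then wider for CCL20 (1.75) and CXCL11 (1.59). It was narrower for CXCL10 (1.27), CXCL16 (1.2), CCL2 (1.5) and CCL5 (1.83). The correction kept the calls of CXCL10 (log2 fold change 5.11), CCL20 (5.62) and CCL2 (5.23) and added those of CXCL16 and CCL5. In RC48 replicate 2, CXCL10, CCL20 and CCL2 stood at 50, 76 and 22 counts. How far GC content contributed to these levels was not tested.

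For each called chemokine, the genes with the most similar log2 CPM over the 6 libraries were sought among the 10176 genes that reached 10 CPM in either group. The libraries form 2 groups that differ in level, and r over them is a description. For CXCL10 these were TMEM52B (r = 0.998), BIRC3 (0.998), an inhibitor of apoptosis, and TPM1 (0.997), a tropomyosin. For CCL2 they were AXL (0.994), a receptor tyrosine kinase, HERC6 (0.99) and BIRC3 (0.988). For CCL20 they were the laminin chains LAMA4 and LAMA3 and the histamine receptor HRH1 (0.996 each). BIRC3 went from 1.94 to 15.6 CPM, a log2 fold change of 3.01 (Benjamini-Hochberg adjusted p = 0.000953 from edgeR's quasi-likelihood fit). The other genes named here had smaller log2 fold changes, from 0.54 for HRH1 to 1.01 for TPM1. LAMA4 and HRH1 were not called (adjusted p = 0.0706 and 0.0932 in edgeR).

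Of 41 other chemokines sought, 18 were listed and 5 passed the filter. The T cell attractant CCL22, a ligand of CCR4, rose with 1, 1 and 0 counts in Control and 12, 13 and 17 after RC48. The log2 fold change of CCL22 was 4.15 (SE 0.56, Benjamini-Hochberg adjusted p = 0.0103 from edgeR's quasi-likelihood fit). Without Control replicate 1, 2 or 3 or RC48 replicate 3, its adjusted p was 0.0677, 0.0737, 0.0621 and 0.0645. The neutrophil attractants CXCL1, CXCL8 and CXCL3 were called higher as well, with log2 fold changes of 6.68, 6.09 and 5.03. XCL1, an attractant of dendritic cells, had 1.49 ± 0.399 and 1.75 ± 0.742 CPM in Control and RC48 (SD, n = 3 each) and was not called. CCL17, the other ligand of CCR4, had 2 counts in Control and 12 after RC48, below the filter, with a ratio of 5.95 and a counting interval of 1.33 to 54.8. CX3CL1, a membrane-bound monocyte and T cell attractant, had 0 counts in Control and 7 after RC48. Among those listed, 2 genes had 0 rounded counts in every library. The median log2 fold change of the 5 tested was 5.03, against 3.18 for the 6 tested of the described set and 0.016 for all genes tested, and low genes that passed the filter only through their RC48 libraries enter both list medians.

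**Figure D5:**
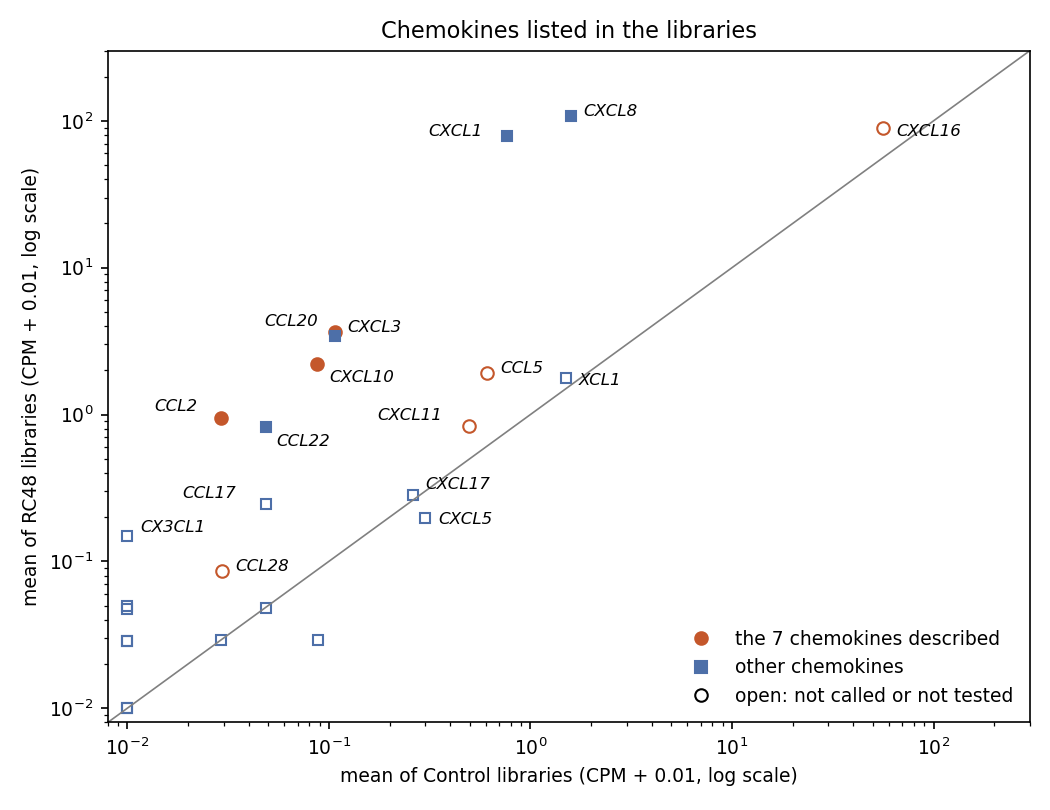
Mean CPM (plus 0.01, log axes) of Control against RC48 libraries for the 7 chemokines described (circles) and 18 other listed chemokines (squares); filled marks are called, open marks are not called or not tested, and the line marks equal levels. CXCL16 lies near the line at 56.3 and 89.4 CPM, while CCL20, CXCL10, CCL2 and the called CXCL1, CXCL3, CXCL8 and CCL22 lie well above it.

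The receptors and the processing enzymes of these ligands were looked at next. Of 13 receptors sought, 9 were listed, 2 passed the filter and 0 were called by edgeR's quasi-likelihood test, where 2.21% of all genes tested were called. Of these 2, 0 had an unadjusted p under 0.05, against 19.1% of all genes tested. ACKR3, a scavenging receptor of CXCL11, had 40.4 ± 1.28 CPM in Control and 50.2 ± 13.7 CPM after RC48 (SD, n = 3 each). CXCR3 had 1 count in each group, CCR6 had 6 and 13, and CCR10 had 10 and 16. CXCR6 and CCR2, the receptors of CXCL16 and CCL2, were not among the 9 listed, so their levels were not assessed. Of 18 genes for shedding, cleavage and heparan sulfate presentation, 16 were tested and 0 were called by edgeR, with 7 at an unadjusted p under 0.05, against 2.21% and 19.1% of all genes tested, and DESeq2 called 3. Of the 16, 11 had a positive log2 fold change, with a median of 0.22 against 0.016 for all genes tested. The log2 fold changes ran from −0.60 for SDC2 to 0.62 for RHBDF2. ADAM10, which sheds CXCL16, had 344.0 ± 21.7 CPM in Control and 280.0 ± 74.0 CPM after RC48 (SD, n = 3 each, log2 fold change −0.30). DPP4, which trims CXCL10 and CXCL11, had 21 counts in Control and 17 after RC48.

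Genes of transcription factors that are known to act on chemokine promoters were tested in full, 20 of 20. Of these, 7 were called higher and 0 lower, where 1.98% of all genes tested were called higher. A positive log2 fold change was found for 18 of the 20. RELB, a subunit of the noncanonical NF-κB pathway, went from 7.75, 9.68 and 7.65 CPM in Control to 82.5, 50.1 and 62.6 CPM after RC48, a log2 fold change of 2.96. NFKB2, its partner, went from 25.9 ± 2.64 to 105.0 ± 22.7 CPM, with SDs over 3 libraries per group, and its log2 fold change was 2.02. IRF9 (1.62), STAT2 (0.70) and IRF7 (1.44), of the interferon response, rose too, as did JUN (0.65) and STAT3 (0.61). The adjusted p-values of these 7 were between 0.000637 and 0.044 after Benjamini-Hochberg adjustment in edgeR's quasi-likelihood fit. RELA, of canonical NF-κB, had 86.3 ± 5.23 and 96.7 ± 1.3 CPM (adjusted p = 0.371), and IRF1 had 123.0 ± 6.5 and 178.0 ± 7.64 CPM (adjusted p = 0.0583; edgeR, SD, n = 3 each). REL, another NF-κB subunit gene, had 287.0 ± 18.6 and 194.0 ± 85.6 CPM, and FOS had 991.0 ± 28.6 and 867.0 ± 71.9 CPM (SD, n = 3 each). Their log2 fold changes were −0.57 and −0.19, and neither was called (adjusted p = 0.304 and 0.326 in edgeR). RELB and NFKB2 kept their calls in every alternative, while IRF9 lost its call without Control replicate 3. IRF7 lost its call without any one of the Control libraries or RC48 replicate 3. STAT2, JUN and STAT3 lost theirs in 8, 10 and 11 alternatives, among them each Control library and RC48 replicate 3 left out. The number of these genes called was 14 without RC48 replicate 2, 11 without RC48 replicate 1 and 2 without Control replicate 3.

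Markers of other cells were read because leukocytes and stromal cells also express these chemokines. Of 20 leukocyte and stromal markers, 16 were listed, 12 were tested and 1 was called, where 2.21% of all genes tested were called. Summed over the list, Control libraries had 320 to 359 CPM and RC48 libraries 445 to 513 CPM, and COL3A1, a collagen gene, made up most of it, with 279.0, 263.0 and 299.0 CPM in Control and 357.0, 431.0 and 446.0 CPM after RC48. The pan-leukocyte gene PTPRC had 0 counts in Control and 2 after RC48, CSF1R had 0 and 4, NKG7 had 2 and 1, FCER1G had 1 and 2, and LYZ had 26 and 30. The T cell receptor subunit CD3E had 16 counts in Control and 51 after RC48, a ratio of 3.16 with a counting interval of 1.77 to 5.94 (adjusted p = 0.113 in edgeR). CD14, a monocyte marker, had 18 and 49 counts, a ratio of 2.7 with a counting interval of 1.55 to 4.93 (adjusted p = 0.162 in edgeR). The macrophage marker CD68 had 867 and 1247 counts (adjusted p = 0.275 in edgeR), while CD3D had 32 and 38 and CD8A had 37 and 37. Of the 12 tested, 9 had a positive log2 fold change, with a median of 0.38 against 0.016 for all genes tested, and 6 had an unadjusted p under 0.05, against 19.1% of all genes tested. ITGAM, an integrin of myeloid cells, was the called gene, with 0, 5 and 0 counts in Control and 69, 54 and 65 after RC48 (log2 fold change 5.12, Benjamini-Hochberg adjusted p = 0.0074 from edgeR's quasi-likelihood fit). The call of ITGAM was lost without Control replicate 3 (adjusted p = 0.0718 in edgeR). ITGAM, CD3E and CD14 passed the filter on low counts through their RC48 libraries. The shares and the median of this list therefore do not support a direction for it. The part of these markers in the chemokine results was not tested. Of 16 urothelial and epithelial markers, all were listed, with a summed level of 12300 to 14100 CPM in Control and 14100 to 18500 CPM after RC48. KRT7, a simple-epithelial keratin, held most of the difference in that sum, with means of 5300 ± 442 CPM in Control and 7630 ± 1680 CPM after RC48 (SD, n = 3 each, adjusted p = 0.188 in edgeR). EPCAM, an epithelial adhesion gene, had 149.0 ± 7.74 and 106.0 ± 21.6 CPM, the luminal factor FOXA1 147.0 ± 0.287 and 109.0 ± 18.5 CPM, and the uroplakin UPK1B 103.0 ± 1.22 and 75.5 ± 2.21 CPM, in Control and RC48 (SD, n = 3 each). Their log2 fold changes were −0.49, −0.44 and −0.44 and none was called (adjusted p = 0.199, 0.194 and 0.0951 in edgeR). UPK3A, another uroplakin, had 5 counts in Control and 20 after RC48. Of the 15 markers tested, 9 had a positive log2 fold change, with a median of 0.10 against 0.016 for all genes tested. Among these 15, 1 was called, where 2.21% of all genes tested were called. KRT20, a luminal marker, fell from 1.98 ± 0.0439 to 0.667 ± 0.29 CPM (SD, n = 3 each, log2 fold change −1.55, Benjamini-Hochberg adjusted p = 0.0489 from edgeR's quasi-likelihood fit). That call was lost with library sizes alone (0.0513) and without Control replicate 1, 2 or 3 (0.215, 0.232 and 0.231).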

How the data were processed

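RNA of 3 Control and 3 RC48-exposed SW780 libraries was sequenced by the authors, filtered with SOAPnuke, mapped with Bowtie2 and counted with RSEM. The deposited values are RSEM's estimated counts per gene, not normalized, of which 11.7% to 15.0% per library are not whole numbers. Deposited TPM, normalized by the authors for length and depth, was used for 5 libraries. The TPM of RC48 replicate 2 was derived here, from counts and the lengths implied by the others. The same procedure on RC48 replicate 3 differed from its deposited TPM by a median absolute log2 difference of 0.0099 over 11543 genes.

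Estimated counts were rounded, filtered with filterByExpr, TMM-normalized and compared between groups by the quasi-likelihood test of edgeR (R 4.3.3, edgeR 4.0.16) with Benjamini-Hochberg adjustment over all genes tested, at 0.05. The study's own test, limma on log2(TPM+1), was an alternative. The others were limma with a pseudocount of 0.1 or without RC48 replicate 2, voom with quality weights (limma 3.58.1), DESeq2 1.42.0, RLE factors, library sizes alone, other filters, unrounded counts, a term for the replicate number, a loess correction for GC content (span 0.3; GENCODE transcripts, 16234 or 99.0% of genes), both together, and each library left out. SEs and 95% intervals of edgeR's log2 fold changes were derived from each estimate and its F statistic. Exact permutation tests were two-sided, and intervals of counts (95%, exact) cover counting error only. The edgeR, DESeq2, voom and limma fits were also run on counts simulated without a GC trend or an outlying library. Those runs do not cover the GC correction, the replicate term, the computed TPM or the permutation tests. Python 3.11.15, pandas 2.3.3, scipy 1.17.1 and matplotlib 3.10.9 were used.

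The members and lists were chosen with earlier results of these data known. Named are the 7 chemokines, up to 5 called genes of each list with the largest change, and 3 genes most similar to each called chemokine. Other named list genes were chosen after their values were seen. Among them are JUN, STAT3, RELA, REL, FOS, IRF1, CCL17, CX3CL1, CXCL9, XCL1 and the receptor, shedding and marker genes.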

Additional observations from a re-analysis of the deposited data

How the results depend on the processing

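CCL20 and CXCL10 were called in all 18 alternatives that could test them, CCL2 in 15, CXCL16 in 8 of 19, CCL5 in 7 of 18 and CXCL11 in 1 of 18, and no log2 fold change of the 6 changed direction. The number of the 7 called, 3, became 5 with DESeq2, 6 with voom, 5 with limma on the 5 libraries with deposited TPM, 5 with the correction for GC content and 0 with a minimum of 10 counts in every library, a filter that leaves only CXCL16 of the set. Leaving out 1 library gave 2 to 5 called chemokines of the set. The correlation of deviations between libraries with the same replicate number was −0.013, −0.116 and 0.0183. Between libraries with unlike numbers it ran from −0.102 to 0.127. Whether libraries with the same number were paired is not given in the labels, and these values cannot decide it. With the replicate block, 331 genes and 4 of the 7 chemokines were called, and 4 of the 20 transcription factor genes.

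Over all genes tested, 288 called became 744 with DESeq2, 8018 with voom, 2894 with limma on 5 libraries, 927 with the correction for GC content and 655 with the block and that correction together. With 1 library left out, 68 to 3726 were called, the lowest without Control replicate 3 and the highest without RC48 replicate 2. Other chemokines called were 1 with the minimum of 10 counts and receptors called were 1 with voom. Shedding and presentation genes called were 3 with DESeq2, 13 with voom, 8 with limma on 5 libraries, 3 with the correction for GC content, 3 with it and the block, and 0 to 8 with 1 library left out. Transcription factor genes called were 4 with library sizes alone, 19 with voom, 4 with limma on log2(TPM+1) and on log2(TPM+0.1), and 2 to 14 with 1 library left out. Leukocyte and stromal markers called were 0 with the minimum of 10 counts, 3 with DESeq2, 8 with voom, 4 with limma on 5 libraries, 3 with the correction for GC content, 2 with it and the block, and 0 to 6 with 1 library left out. Urothelial and epithelial markers called were 0 with library sizes alone, 0 with the minimum of 10 counts, 2 with DESeq2, 9 with voom, 5 with limma on 5 libraries, 2 with the correction for GC content, and 0 to 7 with 1 library left out. The cause of these changes was not tested. With 1 Control library left out, CCL2 rests on 0 or 1 Control counts, and its fitted log2 fold change of 4.70 to 7.03 depends on the prior count. The prior count enters the main estimates of low genes too. Their fitted folds were 35.6 for CCL2, 26.1 for CXCL10 and 35.0 for CCL20, against count ratios of 48.6, 28.5 and 37.5.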
